A study of Mus musculus with 192 samples.

Results

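The genes that encode the proteasome were described in single mouse blood stem and progenitor cells. Members were the rows whose symbol is Psma, Psmb, Psmc or Psmd followed by a number alone, with pseudogenes left out. The rule covers 39 symbols, and 38 of them were found among the 20764 genes counted. Psmb11, the catalytic subunit of the thymus, was not among them. The members were 8 alpha-ring genes (Psma), 10 beta-ring genes (Psmb), 6 ATPases (Psmc) and 14 further Psmd genes.

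The material was 192 single bone marrow cells of C57BL/6 mice aged 8 to 16 weeks. The labels call them LSK cells, meaning negative for lineage markers and positive for Sca-1 and cKit. They give the same strain for every cell and no genotype or treatment that differs between cells. Marrow was enriched for cKit (CD117) on magnetic beads before the sort. The labels name no animal, so all cells count as 1 biological sample and no test or p-value is given. Cells were compared by 4 antibody signals that the sorter recorded. CD135 (Flt3) is a cytokine receptor of early lymphoid and multipotent progenitors, Sca-1 (Ly6a) a surface protein of stem and progenitor cells, cKit the stem cell factor receptor, and CD150 (Slamf1) a protein of stem cells. For each signal the 32 lowest, 32 middle and 32 highest cells of each of the 2 library pools formed the lower, middle and upper class, and 1 cell with too few UMIs was then left out.

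The proteasome degrades proteins that carry ubiquitin chains. Its core particle is a stack of rings built from alpha and beta subunits, with the cutting sites inside. A regulatory particle on its ends holds ATPases that unfold the protein, a scaffold and ubiquitin receptors in its base, and a lid that removes the ubiquitin. In most cells the cutting is done by Psmb5, Psmb6 and Psmb7. Blood cells, and other cells under interferon, can build in Psmb8, Psmb9 and Psmb10 in their place, which gives the immunoproteasome and changes the peptides made for MHC class I. Psmb8 takes the place of Psmb5, Psmb9 that of Psmb6, and Psmb10 that of Psmb7.

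The genes of these catalytic subunits carry the comparison below. Promoter sequences came from RefSeq on GRCm38.p6 and were found for 31 of the 38 members, with windows from 250 bases before to 50 after the gene start. Shown are the bases before the gene start that lie in no annotated exon (GENCODE M21), 5′ to 3′ on the gene's strand, for 2 constitutive genes and 1 immunoproteasome gene. Capitals mark a match to TGACNNNGC, the core of the antioxidant response element, on either strand. Psmb5 is shown at chr14:54618023-54618245 (minus strand), Psmb6 at chr11:70525107-70525356 (plus strand) and Psmb10 at chr8:105938445-105938642 (minus strand).
Psmb5: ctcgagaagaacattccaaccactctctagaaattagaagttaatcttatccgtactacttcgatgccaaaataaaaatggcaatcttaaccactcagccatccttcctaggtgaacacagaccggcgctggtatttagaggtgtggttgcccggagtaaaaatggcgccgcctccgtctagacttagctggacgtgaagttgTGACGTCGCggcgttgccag
Psmb6: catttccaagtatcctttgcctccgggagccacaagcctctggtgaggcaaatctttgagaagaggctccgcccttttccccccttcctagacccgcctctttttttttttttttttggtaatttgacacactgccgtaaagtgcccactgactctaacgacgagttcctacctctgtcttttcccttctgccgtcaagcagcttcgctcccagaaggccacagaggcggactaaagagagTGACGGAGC
Psmb10: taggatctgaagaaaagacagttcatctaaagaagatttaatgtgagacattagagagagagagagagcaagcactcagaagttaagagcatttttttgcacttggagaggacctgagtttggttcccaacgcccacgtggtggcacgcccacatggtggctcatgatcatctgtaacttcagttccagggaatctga

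The match began 47 bases before the gene start in Psmb5 and 9 bases before it in Psmb6, and the Psmb10 stretch held none. TGACNNNGC was in the windows of 5 of the 31 members (16.1%), namely Psmb5, Psmb6, Psmc6, Psmd9 and Psmd12, and in 12.4% of all 32851 promoter windows. GAAANNGAA, the core of the interferon-stimulated response element, was in 4 windows (12.9%, all promoters 8.56%), those of Psmb3, Psmb4, Psmd4 and Psmd9. TTCNNNGAA, the gamma-interferon activation site, was in those of Psmb8 and Psmd2 (6.45%, all promoters 8.30%). The Psmb8 and Psmb9 windows lie inside annotated first exons and are not shown. Psmb7, the remaining constitutive gene, was among the members for which no promoter sequence was found. CCAAT was in 38.7% of the members' windows and 37.4% of all. GGGCGG, the GC box, was in 61.3% of the members' windows and 35.7% of all. All motifs were searched on both strands and may overlap one another; a match describes letters and not a bound site.

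The 191 cells kept held 3704842 UMIs in genes, with a median of 17715 per cell (3927 to 49372). The 2 pools used the same 96 cell indexes, and the pool was taken from the other index in the title. Of the genes that mark LSK cells, Kit had a UMI in 98.4% of cells, Cd34 in 95.3% and Flt3 in 86.4%, while Ly6a had one in 37.7% and Slamf1 in 8.38%. Markers of other cells were sparse but not evenly spread. The dendritic cell list (6 of 6 genes measured) held 743 UMIs, 338 of them in 1 cell, and stood at 61.8, 125.6 and 425 per 1000000 gene UMIs in the CD135 lower, middle and upper classes. The mast cell and basophil list (3 of 4 genes measured) held 319 UMIs, at 174, 63.6 and 15.8 in the same order. The erythroid list (6 of 6 genes) held 213 UMIs, at 122.1, 35.1 and 11.7. Over the Sca-1 lower, middle and upper classes the erythroid list stood at 103.3, 20.1 and 46, the mast cell and basophil list at 168.3, 47.4 and 34.7 and the dendritic cell list at 318, 97.1 and 180. Over the cKit classes, in the same order, the dendritic cell list stood at 472, 84.9 and 80.5. The part of these lists in the differences below was not tested. Cells were left out in turn for the immunoproteasome to constitutive ratio only, not for the proteasome total or single members. Among the sparser lists, the B cell list held 112 UMIs (3 of 4 genes measured), 57 of them in 1 cell, and the monocyte list 108 (6 of 6). The T and NK cell list held 34 (2 of 7), with Cd3e, Cd3d, Cd3g, Cd8a and Ncr1 not among the genes counted. The neutrophil list held 14 (4 of 5 measured, 3 with a UMI).

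How abundant were the proteasome mRNAs? All 38 members together held 11107 UMIs, or 2998 counts per 1000000 gene UMIs (CPM; 95% Poisson interval 2942 to 3054), and every cell had at least 12 of them. Single cells lay between 1428 and 4839 CPM, with a median of 2866. UMIs tag the 3′ end of a transcript, so levels were not divided by length. They are set side by side below as deposited, and differences in 3′ capture between genes were not measured. Intervals here cover counting error only, not variation between cells or animals.

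The alpha ring held the most, with 3223 UMIs. Psma7 was the most abundant member at 167.6 CPM (621 UMIs, in 91.1% of cells, at most 15 in a cell). Psma4 stood at 145.8 and Psma3 at 141.2. Psma8, an alpha subunit of the testis, was the lowest at 6.21 CPM, with 23 UMIs in 18 cells. Of the beta subunits without a cutting site, Psmb1 led with 152 CPM and Psmb3 was lowest with 55.9. Among these neighbours, Psmb1, Psma4, Psma3 and Psmb8 did not differ beyond their counting intervals.

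The 3 immunoproteasome genes held 1116 UMIs and the 3 constitutive ones 878. Psmb8 (chromosome 17, 34197721 to 34201454, plus strand, GRCm38) was the highest of the catalytic genes at 139.8 CPM, with 518 UMIs in 83.2% of cells. Psmb9 (chromosome 17, 34181987 to 34187764, minus strand) stood at 107.2 CPM and Psmb10 (chromosome 8, 105935735 to 105938444, minus strand) at 54.3. Psmb7 (chromosome 2, 38588036 to 38644087, minus strand) had 86.9 CPM, Psmb6 (chromosome 11, 70525367 to 70527858, plus strand) 82.3, and Psmb5 (chromosome 14, 54614119 to 54618022, minus strand) 67.7. The immunoproteasome genes therefore spanned the range, with the highest and the lowest of the catalytic genes both among them. Annotated genes on the opposite strand cover the 3′ ends of Psmb7, Psmb8 and Psmb10, and whether the counting used strand is not given in the sources used here. Of these, Nek6 at Psmb7 had 55 UMIs and Gm20496 at Psmb8 had 3.

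In the regulatory particle, the ATPase genes lay between 38.6 CPM (Psmc5) and 78.8 (Psmc3). In the base, Psmd1, a scaffold subunit, stood at 95.6 CPM, Psmd4, a ubiquitin receptor, at 85.02, and Psmd2, the other scaffold, at 62.4. The lid ran from Psmd7 at 101.8 CPM to Psmd6 at 25.6. Psmd14, the lid's deubiquitinase, stood at 75.3 CPM. The assembly chaperones with a Psmd symbol were low, with Psmd5 at 32.9, Psmd10 at 19.7 and Psmd9 at 11.6 CPM. The plot of levels by role shows core genes at the top of the range, while the lowest levels were those of Psma8 and of the chaperones Psmd9 and Psmd10.

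**Figure D1:**
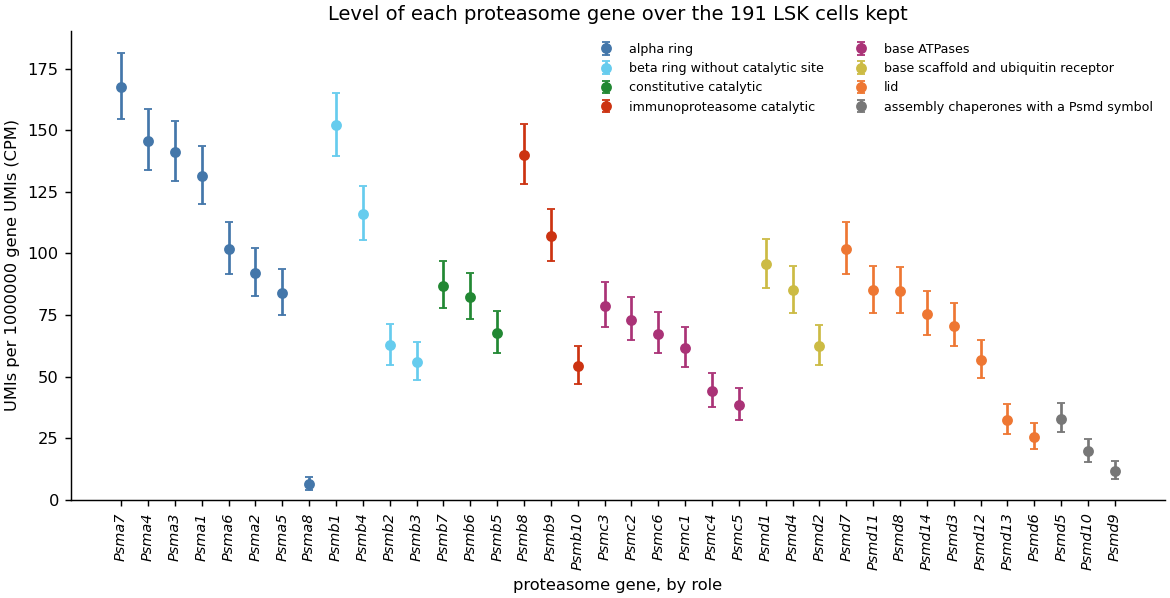
Level of each of the 38 proteasome genes over the 191 cells kept, in UMIs per 1000000 gene UMIs (vertical axis), ordered by role and level (horizontal axis). Points are summed cells and bars 95% Poisson intervals; Psma7 was highest at 167.6, Psmb8 the highest catalytic gene at 139.8, and Psma8 lowest at 6.21.

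Between cells, the UMI counts of single proteasome genes typically varied somewhat more than counting error alone gives. The variance of a gene's UMIs over cells, divided by the variance that Poisson counting at each cell's depth would give, had a median of 1.25 over the 34 members with at least 100 UMIs (0.99 to 1.75). The median over 5991 genes with at least 100 UMIs was 1.46, but these were not matched to the members by level. At low counts per cell such a ratio stays near 1 even where mRNA levels vary, so small variation between cells is not shown. Summed core genes (Psma and Psmb) and summed regulatory genes (Psmc and Psmd) had a Spearman rho of 0.27 over the 191 cells (0.32 in pool 1, 0.24 in pool 2). The immunoproteasome and constitutive sums had 0.10. The total of all members had 0.39 with the TRiC chaperonin genes, 0.40 with a G2/M list, 0.35 with an S phase list and 0.06 with ribosomal protein genes. It also had 0.27 with the cell's own gene UMIs, and all these sums share that depth. These values describe the cells and carry no p.

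Did the proteasome total differ with the surface signals? It was lower in cells with more CD135 and with more Sca-1, slightly higher with more cKit, and near equal over CD150. The differences between classes were far narrower than the range between single cells, and the cells of every pair of classes overlapped. Over single cells the total had a Spearman rho of -0.14 with CD135, -0.12 with Sca-1 and 0.04 with CD150. With cKit it had 0.11, from 0.23 in pool 1 and -0.01 in pool 2.

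In the CD135 lower, middle and upper classes the total stood at 3136, 2987 and 2862 CPM. Single cells lay between 1478 and 4839 CPM in the lower class (median 3009), between 1428 and 4590 in the middle class (median 2882) and between 1524 and 4571 in the upper class (median 2713). The log2 ratio of upper over lower class was -0.13 (-0.20 to -0.07). Both pools had the same order, with 3218, 3074 and 2920 CPM in pool 1 and 3040, 2898 and 2799 CPM in pool 2. The regulatory particle differed by -0.22 (-0.33 to -0.12) and the core particle by -0.07 (-0.16 to 0.01). Without the 3 immunoproteasome genes the difference of the total was -0.18 (-0.25 to -0.11).

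By Sca-1 the total stood at 3195, 2925 and 2854 CPM in the lower, middle and upper classes. Medians of single cells were 2959, 2826 and 2823 CPM, closer to each other than the summed values. The log2 ratio of upper over lower was -0.16 (-0.23 to -0.10), with -0.19 in pool 1 and -0.14 in pool 2. Lid genes had -0.34 (-0.50 to -0.18), and ATPase genes -0.08 (-0.27 to 0.11).

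By cKit the total stood at 2827, 3103 and 3047 CPM, highest in the middle class. The log2 ratio of upper over lower was 0.11 (0.04 to 0.17), with 0.16 in pool 1 and 0.06 in pool 2, where the interval reached below 0 (-0.04 to 0.15). By CD150 it stood at 2981, 2959 and 3045 CPM, a log2 ratio of 0.03 (-0.04 to 0.10), with -0.03 in pool 1 and 0.09 in pool 2. The median CD150 signals of the lower, middle and upper classes were 44.7, 69.7 and 110 arbitrary units. The upper class ran from 78.7 to 555, so it holds the top cells by rank and is not a gate of CD150-high cells.

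Cell cycle genes differed between some of these classes, and cell size was weakly related to the signals. The G2/M list had a log2 ratio of upper over lower of -0.47 by CD135, -0.24 by Sca-1, 0.43 by cKit and 1.15 by CD150. The S phase list had -0.04, -0.34, 0.26 and 0.42 in the same order. Forward scatter, a measure of cell size, had a Spearman rho over cells of 0.13 with CD135 and -0.09 with Sca-1. It had 0.06 with cKit and 0.20 with CD150. Between upper and lower classes of forward scatter, the proteasome total itself had 0.15 (0.08 to 0.22), while the S phase list had 1.40 and the G2/M list 1.34. In the same classes the immunoproteasome sum had 0.34 (0.12 to 0.56) and the constitutive sum 0.08 (-0.16 to 0.32). The part of cell cycle and size in the proteasome differences was not tested. Per spike-in UMI, in place of per gene UMI, the proteasome log2 ratios were -0.21 by CD135, -0.45 by Sca-1, 0.38 by cKit and 0.33 by CD150. That scale adds, by construction, the classes' difference in gene UMIs per spike-in UMI.

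**Figure D2:**
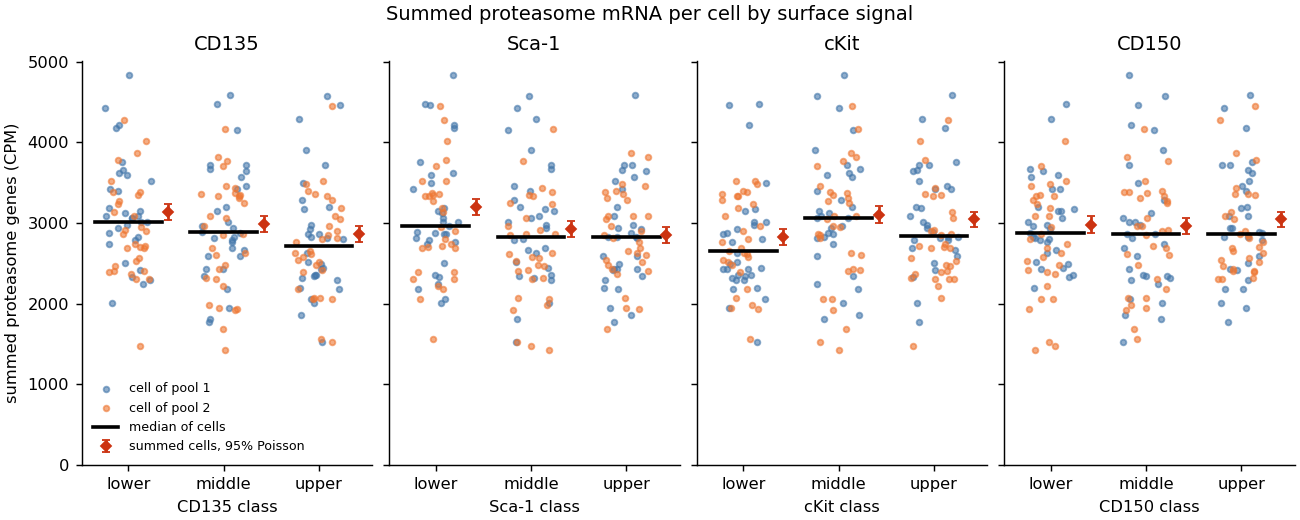
Summed proteasome UMIs per 1000000 gene UMIs (vertical axis) of each cell, by lower, middle and upper class of CD135, Sca-1, cKit and CD150 (horizontal axis). Dots are cells coloured by pool, black lines medians of cells, and diamonds the summed class with its 95% Poisson interval; CD135 medians were 3009, 2882 and 2713, and the cells of all classes overlapped.

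Which members differed? A ratio was counted where a gene had at least 100 UMIs over the lower and upper classes, and called higher at a log2 ratio of at least 0.32 and lower at -0.32 or below. The median half-width of a member's interval was 0.40 for CD135, so a call of this kind is a size and not a test. By CD135, 2 of 31 members were called higher, where 13.4% of 4308 genes were, and 8 were called lower, where 19.2% of all genes were. The share called higher was thus below that of all genes and the share called lower somewhat above it. The median of the 31 was -0.18, against -0.03 over all genes tested. Of the 31, 22 were below 0, as were 2339 of the 4308 genes.

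The 2 called higher by CD135 were Psmb9 and Psmb8, both of the immunoproteasome. Psmb9 had 119, 138 and 140 UMIs in the CD135 lower, middle and upper classes, or 93.2, 112.5 and 116.5 CPM, a log2 ratio of upper over lower of 0.32 (-0.04 to 0.69). It was above 0 in both pools (0.37 and 0.27). Psmb8 stood at 122.9, 141.9 and 155.7 CPM, a log2 ratio of 0.34 (0.03 to 0.66), but was at -0.05 in pool 1 and 0.72 in pool 2. Psma4, of the alpha ring, had 0.22 and Psmc4, an ATPase, 0.24, and both intervals included 0.

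On the lower side by CD135, Psmc2, an ATPase, had 104, 101 and 66 UMIs, a log2 ratio of -0.57 (-1.03 to -0.11; -0.52 and -0.62 in the pools). Psmb3, a beta subunit without a cutting site, had 85, 66 and 56 UMIs and -0.51 (-1.03 to -0.01). Psma2, of the alpha ring, stood at 104.1, 97.04 and 74.09 CPM and had -0.49 (-0.89 to -0.09). The others called lower were Psmc3, Psmb5, Psmd12, Psmd11 and Psmd2, between -0.49 and -0.33. All 6 lid genes with enough UMIs were below 0, with a median of -0.26, where 2339 of 4308 genes were below 0. Psmc5, which missed the UMI minimum, had 60, 54 and 29 UMIs.

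By Sca-1, 0 of 31 members were called higher (17.2% of 4268 genes) and 8 were called lower (16.1%), a share above that of all genes. The 8 were Psmb3, Psmc6, Psma5, Psma1, Psmd7, Psmb1, Psmd8 and Psma2, which span both rings, the ATPases and the lid. Psmb3 had 102, 50 and 55 UMIs in the Sca-1 lower, middle and upper classes, a log2 ratio of -0.71 (-1.21 to -0.22; -0.46 and -1.09 in the pools), the lowest of any member with enough UMIs under any signal. Psmc6 had 107, 75 and 68 UMIs and -0.47 (-0.93 to -0.02), and Psma5 had 131, 96 and 84 and -0.46 (-0.87 to -0.05). At the other end stood Psmc3 at 0.32, just short of a call, Psmb8 at 0.21 and Psmb9 at 0.10. The members' median was -0.18, against -0.01 over all genes.

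By cKit, 3 of 31 members were called higher (18.2% of 4387 genes) and 1 lower (12.6%), shares below the background on both sides. The median was 0.18, against 0.04 over all genes. Psmd8, a lid subunit, had 75, 98 and 141 UMIs in the cKit lower, middle and upper classes, a log2 ratio of 0.59 (0.17 to 1.01; 0.47 and 0.79 in the pools). Psmb5 had 64, 76 and 111 UMIs and 0.47 (0.01 to 0.94), and Psma1 stood at 108.7, 148.6 and 135.3 CPM and had 0.32 (-0.02 to 0.66), just short of a call. Psmb4, the third gene called, was at 0.85 in pool 1 and -0.05 in pool 2. Psmc4 was lower at -0.43 (-1.003 to 0.14), with 49.87, 47.56 and 37.02 CPM. Psmc1 at -0.22 and Psmb6 at -0.19 were next.

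By CD150, 2 of 32 members were called higher (14% of 4350 genes) and 1 lower (13.6%), and the median was 0.02 against -0.01 over all genes. Psmb10 had 48, 68 and 85 UMIs in the CD150 lower, middle and upper classes and a log2 ratio of 0.48 (-0.05 to 1.02; 0.82 and 0.20 in the pools). Psmd12, a lid subunit, had 47, 80 and 83 UMIs and 0.48 (-0.06 to 1.02), and Psmd14 stood at 0.31. Psmc6 was lower, with 88, 78 and 84 UMIs and -0.41 (-0.86 to 0.04), followed by Psmc5 at -0.23 and Psmc4 at -0.19. The heat map of ratios shows bands of mostly blue for CD135 and Sca-1 and of mostly red for cKit, with immunoproteasome genes red or near white in the CD135 and Sca-1 bands.

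**Figure D3:**
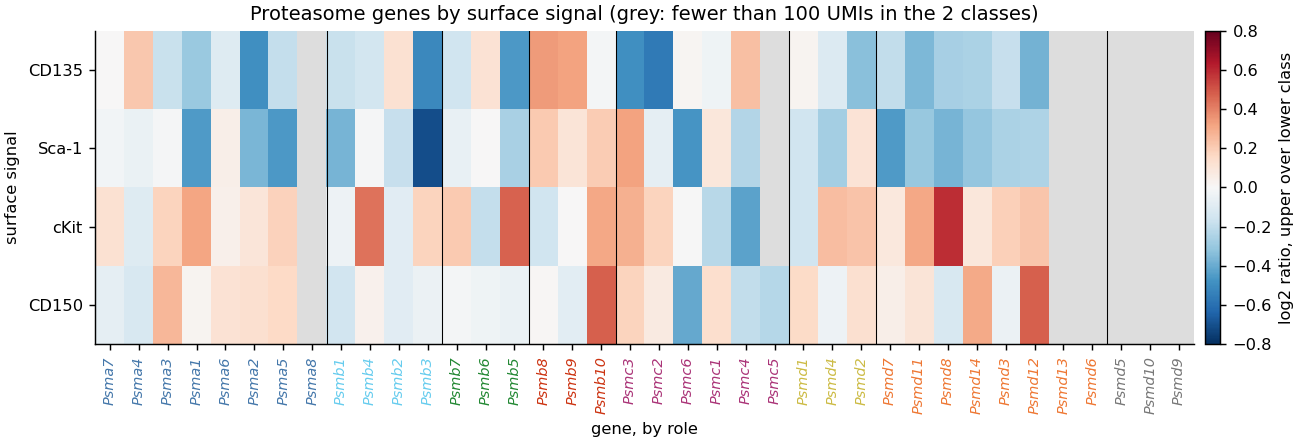
log2 ratio of the upper over the lower class for each proteasome gene (horizontal axis, by role, symbols coloured by role) and each surface signal (vertical axis); red is higher and blue lower in the upper class, and grey marks genes with fewer than 100 UMIs in the 2 classes. Psmb3 by Sca-1 was lowest at -0.71 and Psmd8 by cKit highest at 0.59.

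Did the make-up of the catalytic subunits differ? Over all cells there were 1.27 immunoproteasome UMIs (Psmb8, Psmb9 and Psmb10) for each constitutive one (Psmb5, Psmb6 and Psmb7; 1116 against 878), with 1.41 in pool 1 and 1.15 in pool 2. In the CD135 classes this ratio was 1.08 (348 against 321 UMIs) in the lower, 1.32 (374 against 284) in the middle and 1.44 (394 against 273) in the upper class. The log2 ratio of the upper over the lower class's ratio was 0.41 (0.09 to 0.73). Pool 1 gave 0.26 (-0.20 to 0.72), with 1.22, 1.58 and 1.46 in the lower, middle and upper classes, and pool 2 gave 0.57 (0.12 to 1.03), with 0.96, 1.10 and 1.43. Leaving out any 1 cell gave 0.37 to 0.46, including the cell that held 338 of the 743 dendritic cell UMIs.

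By CD135 the immunoproteasome sum was higher and the constitutive sum lower, but the interval of the constitutive sum included 0. The immunoproteasome sum stood at 272, 305 and 328 CPM in the lower, middle and upper classes (log2 0.27, 0.06 to 0.48) and the constitutive sum at 251, 232 and 227 CPM (log2 -0.14, -0.38 to 0.09). Of the 3 subunit pairs, Psmb8 to Psmb5 differed most. It was 1.55, 2.15 and 2.71 in the lower, middle and upper classes, a log2 ratio of 0.80 (0.24 to 1.37). Pool 1 gave 0.71 for this pair and pool 2 gave 0.89, but through different genes. In pool 1 Psmb5 had 30 UMIs in the upper and 56 in the lower class while Psmb8 had 78 and 89. In pool 2 Psmb8 had 109 UMIs in the upper and 68 in the lower class while Psmb5 had 39 and 45. Psmb9 to Psmb6 had 0.21 (-0.34 to 0.75) and Psmb10 to Psmb7 had 0.14 (-0.51 to 0.80).

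The CD135 and cKit signals ran against each other (Spearman rho -0.54), and of the 64 CD135 upper cells 43 were cKit lower and 2 were cKit upper. Within the cKit lower class the ratio was 1.54 in 43 CD135 upper cells and 0.86 in 8 CD135 lower cells, a log2 ratio of 0.85 (0.04 to 1.66). Within the cKit middle class it was 1.38 in 19 CD135 upper cells and 1.09 in 19 CD135 lower cells (0.34, -0.27 to 0.96). Within the cKit upper class it was 0.79 in only 2 CD135 upper cells and 1.12 in 36 CD135 lower cells (-0.51, -1.63 to 0.59). The proteasome total had log2 ratios of -0.17 (-0.32 to -0.01) within the cKit lower class, -0.15 (-0.27 to -0.03) within the middle class and 0.23 (-0.01 to 0.47) within the upper class. Both values of the cKit upper class thus had the opposite sign, with intervals that included 0. Within the Sca-1 lower, middle and upper classes the log2 ratio of the immunoproteasome ratio by CD135 was 0.70 (0.16 to 1.24), -0.14 (-0.73 to 0.45) and 0.42 (-0.25 to 1.08), and within the CD150 classes it was 0.18 (-0.42 to 0.78), 0.94 (0.28 to 1.60) and 0.33 (-0.23 to 0.89). The proteasome total by CD135 was below 0 in each of these 6 classes, between -0.17 and -0.04.

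By Sca-1 the ratio was 1.10, 1.42 and 1.32 in the lower, middle and upper classes, a log2 ratio of upper over lower of 0.26 (-0.06 to 0.59). By cKit it was 1.37, 1.23 and 1.23 (-0.15, -0.47 to 0.17), and the pools pointed in opposite directions, with 0.20 in pool 1 and -0.50 in pool 2. By CD150 it was 1.23, 1.26 and 1.31 (0.09, -0.23 to 0.41), again with opposite signs in the pools, 0.29 and -0.11. For these 3 signals the interval of the difference included 0. The size seen by CD135, 0.413, lay inside the Sca-1 interval, just above the upper end of the CD150 one (0.409) and above the cKit one. The CD135 interval itself (0.09 to 0.73) overlapped those of all 3 signals, so a difference between signals is not shown. Over single cells, the immunoproteasome share of the 6 genes' UMIs had a rho of 0.11 with CD135, 0.01 with Sca-1, -0.07 with cKit and 0.03 with CD150.

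**Figure D4:**
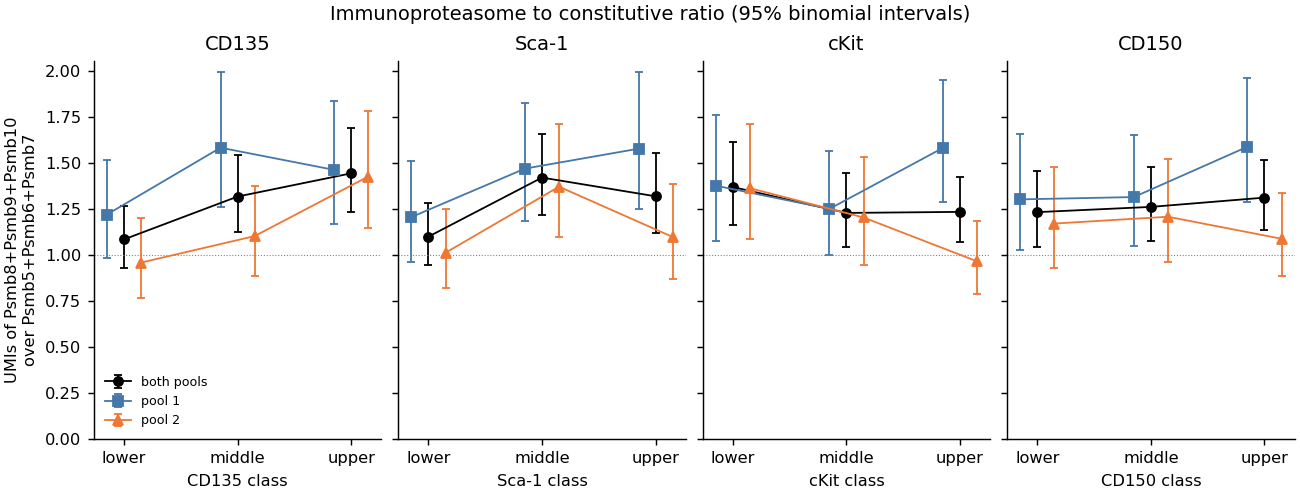
UMIs of Psmb8, Psmb9 and Psmb10 divided by those of Psmb5, Psmb6 and Psmb7 (vertical axis) in the lower, middle and upper class of each surface signal (horizontal axis), for both pools together (black) and each pool, with 95% binomial intervals. By CD135 the ratios of both pools together were 1.08, 1.32 and 1.44.

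Genes that act with the proteasome were read in the same classes. Psme1 and Psme2 encode the activator that caps the core under interferon. Psme1 had 237, 278 and 259 UMIs in the CD135 lower, middle and upper classes (log2 ratio of upper over lower 0.22, -0.04 to 0.48). Psme2 had 66, 94 and 91 UMIs and 0.55 (0.08 to 1.03), from -0.40 in pool 1 and 1.06 in pool 2. Pomp, the chaperone that matures the core, had 0.11 by CD135. Of the 4 tested genes of the receptors and deubiquitinases list, 1 was called lower by CD135, where 19.2% of all genes were. All 4 were below 0, with a median of -0.27, where 2339 of 4308 genes were below 0. Nfe2l1, the transcription factor that drives proteasome genes when the proteasome is blocked, had -0.01 by CD135 and -0.01 by Sca-1. The TRiC chaperonin folds newly made proteins and has no part in the proteasome itself. The sum of its 8 genes had log2 ratios of -0.15 (-0.25 to -0.05) by CD135, -0.15 (-0.25 to -0.06) by Sca-1, 0.21 (0.11 to 0.31) by cKit and 0.17 (0.08 to 0.27) by CD150. Its differences by CD135, Sca-1 and cKit thus had the sign of those of the proteasome total (-0.13, -0.16 and 0.11) and were of like size or larger. The median of single TRiC genes was nearer 0 than the sum by CD135 (-0.05, 7 tested), Sca-1 (-0.10, 7 tested) and cKit (0.11, 8 tested). By CD150 it was not, at 0.19 (7 tested).

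Sca-1 is itself an interferon-responsive protein, and interferon response genes were higher in the Sca-1 upper class. All 10 listed genes with enough UMIs were called higher (10 of 20 listed), where 17.2% of 4268 genes were. Their median log2 ratio was 0.56, against -0.01 over all genes tested, and the sum of the list had 0.66 in each pool. In the peptide loading and MHC class I list 5 of 7 were called higher, with a median of 0.38. B2m, the light chain of MHC class I, had 2706 UMIs in the Sca-1 upper class and 2365 in the lower class (0.38, 0.30 to 0.46), and Tap1, a peptide transporter, had 80 and 104 (-0.20, -0.64 to 0.24). The 3 immunoproteasome genes had 0.10 to 0.21 with no call, and Psme1 and Psme2 had 0.12 and -0.13. By CD135, 3 of 10 interferon response genes were called higher and 1 lower (median 0.06), where 13.4% and 19.2% of all genes were. The sum of the interferon list had 0.17 (0.07 to 0.27) by CD135, with 0.30 in pool 1 and 0.02 in pool 2. In the MHC list 0 of 7 genes were called either way, and its sum had -0.08 (-0.14 to -0.02) by CD135. The immunoproteasome sum had a rho of 0.06 with the interferon list and 0.04 with the MHC list over single cells. Irf1 was among the genes called higher by both signals, at 0.97 by Sca-1 and 0.63 by CD135.

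**Figure D5:**
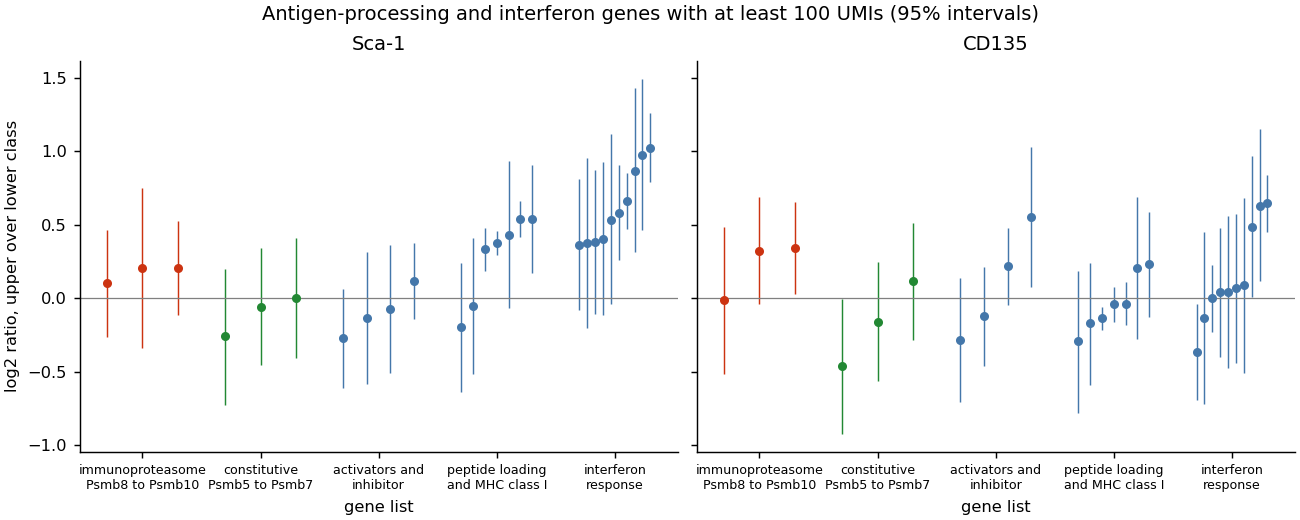
log2 ratio of the upper over the lower class (vertical axis) for genes with at least 100 UMIs in 5 lists (horizontal axis), by Sca-1 on the left and CD135 on the right; points are genes and bars 95% intervals. By Sca-1 all 10 interferon response genes lay above 0.32, while the 3 immunoproteasome genes lay between 0.10 and 0.21.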

How the data were processed

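Per the labels' protocols, an adapted CEL-seq2 protocol was used, with 96 indexed poly(dT) primers, a UMI of 6 bases and spike-in RNA. The authors deposited whole-number UMI counts of 20764 genes and 71 spike-ins in each cell, without normalization. No aligner or counting tool is named in the sources used here. The submitters' processing notes name GRCh38, a human build, while every gene carries a mouse identifier, so the build used is not known; symbols and coordinates were looked up by identifier in GENCODE M21 on GRCm38.

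A cell stayed in if it had at least 20% of the median gene UMIs in its pool. For each class, the UMIs of its cells were added up and scaled to its gene UMIs, spike-ins left out, to give CPM. Sums have exact Poisson intervals, ratios of classes exact conditional binomial intervals, and ratios of ratios exact conditional odds ratio intervals, all at 95% and for counting error only. Depth per class was 1099301 to 1404535 gene UMIs over the 4 signals. A call is a fold of 1.25 either way, among genes with at least 100 UMIs in the 2 classes. No correction was made for UMI collisions in the main values, and doublets were not called, since cells were sorted singly. Tools were Python 3.11.15, numpy 2.4.6, pandas 2.3.3 and scipy 1.17.1. The interval code was tested on simulated Poisson counts, which hold counting error only and no other variation between cells. A first, fixed coverage threshold was missed and was replaced by a binomial check, with the interval code unchanged.

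Members, gene lists and comparisons were chosen with earlier results of these data known. Named by rule were the 6 catalytic genes, the highest and lowest member of each role, up to 3 members per direction and signal with the widest log2 ratio and the same sign in both pools, and Psme1, Psme2, Pomp, Tap1, B2m and Nfe2l1; the members called, Psmc5 by CD135, Psma3, Psma4, Psmd4, Psmd14 and Irf1 were added after their values were seen. Alternatives were other class cuts, filters, pools, weights, spike-in scaling, single subunit pairs, and other folds and UMI minimums. Leaving out each cell in turn, for the immunoproteasome to constitutive ratio only, was chosen after the data were seen.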

Additional observations from a re-analysis of the deposited data

Results flagged for a closer look

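The immunoproteasome to constitutive ratio by cKit had opposite signs in the library pools, with a log2 ratio of upper over lower class of 0.20 in pool 1 and -0.50 in pool 2. By CD150 the same ratio had 0.29 in pool 1 and -0.11 in pool 2, and the proteasome total had -0.027 in pool 1 and 0.091 in pool 2. The difference between pools was not tested in any of these. Reads outside the members were found for Psmb6-ps2, a processed pseudogene with 6 UMIs over all cells; there are no control samples to set it against.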

How the results depend on the processing

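Of the alternatives to the sums, ratios and counts, 117 gave a value within the main value's interval or within 1.5 times the main count, and 19 moved. Among them 7 had the opposite sign, all for values whose interval included 0: the ratio by cKit in 4 (0.20 in pool 1, 0.20 with Psmb9 to Psmb6, 0.10 with Psmb10 to Psmb7 and 0.01 without the top member on each side), the ratio by CD150 in 2 (-0.11 in pool 2 and -0.05 with Psmb9 to Psmb6) and the sum by CD150 in 1 (-0.027 in pool 1). Sums moved only when scaled per spike-in UMI, to log2 values of -0.21 by CD135, -0.45 by Sca-1, 0.38 by cKit and 0.33 by CD150. The immunoproteasome to constitutive ratio moved to 0.80 by CD135 with Psmb8 to Psmb5 alone. By cKit it moved, beside the values above, to -0.50 in pool 2 and -0.63 with Psmb8 to Psmb5, and by CD150 to 0.50 with Psmb10 to Psmb7. At a fold of 1.5, members called were 0 higher and 0 lower by CD135, 1 lower by Sca-1, 1 higher and 0 lower by cKit, and 0 higher and 0 lower by CD150. The count lower by cKit was 2 with a minimum of 50 UMIs and 2 with 20. The share of all genes past these other folds and minimums was not computed, so these counts have no background beside them. Of 84 alternatives for single named members, each the value in 1 pool, 13 had the opposite sign. For Psmb8 by CD135, at -0.054 in pool 1, the interval of both pools together lay above 0. For the other 12 it included 0. The causes were not tested. No paired analysis was possible because the cells form 1 group with no replicate numbers. For a member with the median interval by CD135, 0.40 on either side, a difference below that size was not detectable at this depth; more abundant members had narrower intervals.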
